A study of Mus musculus with 2 samples.

Results

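The chemokine and chemokine receptor genes were taken by symbol. A member is any gene whose symbol is Ccl, Cxcl, Cx3cl, Xcl, Ccr, Cxcr, Cx3cr, Xcr or Ackr followed by a number and at most 1 letter, with at least 20 unique molecular identifiers (UMIs, each standing for 1 captured RNA molecule) over both libraries. Of the 32285 genes counted, 60 had such a symbol and 54 of these were members: 33 ligands, 17 receptors and 4 atypical receptors. The member with the fewest UMIs was Ccr8 with 36. Below the minimum were Cxcr1 with 10 UMIs and Ccl21b, Ccl21c, Ccl26, Ccl27a and Ccl27b with 0.

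Chemokines are small secreted proteins that direct the movement of cells along their gradients. Their receptors couple to G proteins and sit mostly on white blood cells, whereas the atypical receptors bind chemokines and take them up without that signal. In the mammary gland, chemokines are known for drawing in macrophages and other leukocytes around the growing ducts.

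The cells came from the 4th mammary gland of virgin female C57BL/6 mice, 6 to 8 weeks old, in which Gpm6a (a membrane glycoprotein best known from neurons) was deleted (KO) or which were wild type (WT). Per the labels, 3 littermates per genotype gave cells that were sorted as negative for DAPI, a dye that enters dead cells, and made into 1 droplet library of 10x Genomics per genotype, with no word on how animals were pooled or which part of Gpm6a was missing. There is thus 1 library per genotype: no test can be made, no p-value is given, and animal, sort and library cannot be told apart from genotype. Levels are UMIs of a gene per 1000000 UMIs of a class of cells (CPM). Brackets hold exact Poisson 95% intervals for levels and exact Clopper-Pearson intervals for shares, which cover counting error only. Ratios are log2 of KO over WT after adding 1 CPM to each.

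Although the labels speak of mammary epithelial cells, marker genes showed fibroblasts, vessels and leukocytes too. The KO library held 11442 barcodes and 139757797 UMIs, and the WT library 12291 barcodes and 160026788 UMIs. Filters left 10472 cells in the KO library, with a median of 9521 UMIs, and 10523 in the WT library, with a median of 11086. Of their barcode sequences, 20 occurred in both libraries. Clustering without the member genes gave 53 clusters, of which 34 were named as 20 classes, and each class name here means cells like that type. Unnamed clusters held 926 KO cells (8.84%) and 2036 WT cells (19.3%). Gpm6a had 29 UMIs in KO cells, at 0.225 CPM (0.150 to 0.323), against 284 UMIs in WT cells, at 1.91 CPM (1.70 to 2.15). Vascular endothelial cells carried 22 UMIs in KO, at 6.99 CPM, and 20 in WT, at 5.27 CPM, so the gene was lower in the KO library but not in that class. Of the WT UMIs, 179 lay in the 30 cells of the unnamed cluster 34, which has mesothelial markers and no KO cell, so the difference over the whole library rests largely on cells found in WT alone. The named classes held 29 UMIs in KO, at 0.277 CPM (0.185 to 0.398), and 97 in WT, at 0.862 CPM (0.699 to 1.05). Among them, fibroblasts had 4 UMIs in KO and 29 in WT, at 0.101 and 0.669 CPM. Basal cells had 0 in KO and 17 in WT, as did luminal progenitors. Vascular endothelial cells were the only named class with a higher level in KO. Fibroblasts were the largest class, with 4617 KO and 3844 WT cells. Lymphocytes were more numerous in the KO library, with 339 KO and 102 WT B cells, and vascular smooth muscle cells in the WT library, with 181 KO and 460 WT cells.

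Many members lie side by side in the genome. On chromosome 5 (mm10), Cxcl5, Cxcl3, Cxcl15, Cxcl1 and Cxcl2 follow each other between positions 90759360 and 90905938, and Cxcl9 and Cxcl10 lie at 92321347 to 92348889. Chromosome 11 holds Ccl2, Ccl7, Ccl11, Ccl12, Ccl8 and Ccl1 from 82035571 to 82305690, and Ccl5, Ccl9, Ccl6, Ccl3 and Ccl4 from 83525778 to 83664683. Chromosome 9 holds the receptors Ccr9, Cxcr6, Xcr1, Ccr1, Ccr3 and Ccr2 from 123678439 to 124113557. Some neighbours were highest in the same cell class, such as Cxcl9 and Cxcl10 in vascular endothelial cells and Ccl3 and Ccl4 in macrophages. Others were not: of the 5 genes from Cxcl5 to Cxcl2, 2 were highest in fibroblasts, 2 in macrophages and 1 in hormone-sensing luminal cells.

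Promoter windows were read for 41 members from RefSeq (GRCm38.p6), each of 250 bases before to 50 after the start of the gene. Both strands were searched for the NF-kB motif GGGANNTTCC and the interferon-stimulated response motif GAAANNGAAA. The first reads nearly the same on both strands, so its matches on the 2 strands can overlap. The NF-kB motif was in the windows of 6 of 41 members (Ccl1, Ccr3, Cxcl1, Cxcl2, Cxcl3 and Cxcl10) and in 482 of 32851 windows of all genes (1.47%). The interferon motif was in those of 3 of 41 members (Ccl19, Cxcl10 and Cxcl14) and in 1131 of 32851 windows (3.44%). A match is a description of letters, not a site. The 250 bases before the start are printed for the 3 neighbouring ligands of neutrophils that share the NF-kB motif, although their levels peak in different classes, and for Cxcl10, the only member with both motifs, which lie apart there. They run 5′ to 3′ on the gene's own strand, with motif letters in capitals.
Cxcl1 (chr5:90890995-90891244, plus strand, motif starting 71 bases before the start): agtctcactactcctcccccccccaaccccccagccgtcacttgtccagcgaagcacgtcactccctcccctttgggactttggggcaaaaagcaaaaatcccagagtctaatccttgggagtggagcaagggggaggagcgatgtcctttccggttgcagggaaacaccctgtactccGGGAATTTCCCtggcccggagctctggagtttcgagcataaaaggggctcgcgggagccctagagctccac
Cxcl2 (chr5:90903649-90903898, plus strand, motif starting 97 bases before the start): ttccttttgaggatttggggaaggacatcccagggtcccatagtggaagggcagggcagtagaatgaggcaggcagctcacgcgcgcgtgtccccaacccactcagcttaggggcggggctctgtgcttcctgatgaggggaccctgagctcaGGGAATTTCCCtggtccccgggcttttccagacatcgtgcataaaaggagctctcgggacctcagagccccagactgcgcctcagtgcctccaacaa
Cxcl3 (chr5:90785851-90786100, plus strand, motif starting 73 bases before the start): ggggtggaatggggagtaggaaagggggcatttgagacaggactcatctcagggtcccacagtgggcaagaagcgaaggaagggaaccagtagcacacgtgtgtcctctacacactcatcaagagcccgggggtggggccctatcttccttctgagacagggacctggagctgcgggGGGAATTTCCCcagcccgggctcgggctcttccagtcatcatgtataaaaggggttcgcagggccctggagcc
Cxcl10 (chr5:92348890-92349139, minus strand, interferon motif first, then the NF-kB motif 159 bases before the start): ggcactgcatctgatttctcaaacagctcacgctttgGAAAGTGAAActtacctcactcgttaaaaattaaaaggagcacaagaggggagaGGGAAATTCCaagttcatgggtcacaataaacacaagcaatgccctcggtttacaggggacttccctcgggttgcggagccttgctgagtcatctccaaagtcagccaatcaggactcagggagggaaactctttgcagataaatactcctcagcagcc

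Each member was placed in the class with its highest level over both libraries, among classes of at least 50 cells. All 17 receptors had their highest level in an immune class. Of the 33 ligands, 16 were highest in an immune class, 8 in a stromal, 5 in an epithelial and 4 in a vascular class. Atypical receptors were highest outside the leukocytes, with 2 in fibroblasts, 1 in vascular endothelial cells and 1 in basal cells. Ligands made up 17997 CPM of KO and 18841 CPM of WT mature dendritic cells, the highest sum among these classes. Fibroblasts held fewer ligand UMIs per total, 9337 CPM in KO and 8031 CPM in WT, but were far more numerous.

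**Figure D1:**
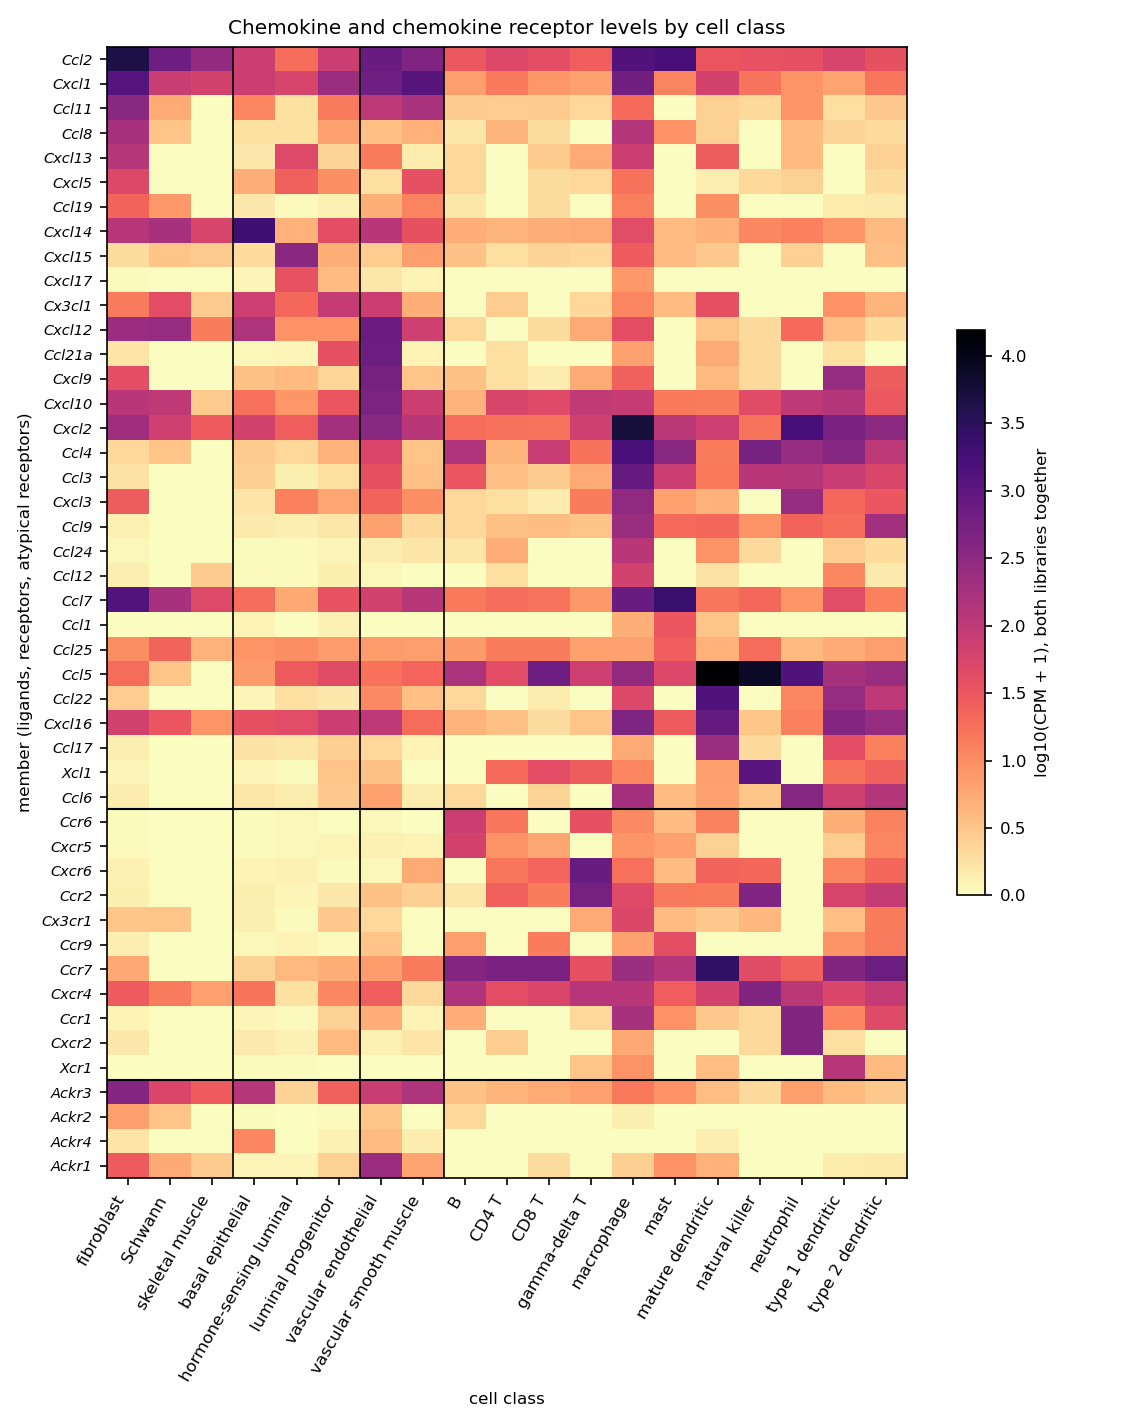
Level of members with at least 200 UMIs (rows, with 1 receptor left out: ligands, then receptors, then atypical receptors, parted by horizontal lines) in each class of at least 50 cells (columns: stromal, epithelial, vascular, immune), as log10 of CPM + 1 over both libraries. Receptors are dark on the immune side, while ligands such as Ccl2 in fibroblasts, Cxcl14 in basal cells and Cxcl12 in vascular endothelial cells are dark outside it.

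Fibroblasts were the class with the highest level of 8 ligands, among them the monocyte ligand Ccl2 and the neutrophil ligand Cxcl1. Ccl2, which draws monocytes through Ccr2, reached 5037 CPM (5015 to 5059) in KO fibroblasts and 4196 CPM (4177 to 4216) in WT fibroblasts, and these cells held 86.6% of all its UMIs. B cells, which should lack Ccl2, had 29.6 CPM in KO and 28.2 CPM in WT, with a UMI in 10.0% of KO B cells (median 2870 UMIs per cell) and 11.8% of WT B cells (median 3378). Fibroblasts, at medians of 8470 UMIs in KO and 10931 in WT, had one in 68.8% of KO and 72.3% of WT cells. A level of that size in other leukocytes is therefore no higher than in a class that should lack the gene. The source of these UMIs was not tested. Ccl7, another monocyte ligand, stood at 1470 CPM in KO fibroblasts and 1057 CPM in WT fibroblasts. Cxcl1, a neutrophil ligand, had 1172 CPM (1162 to 1183) in KO fibroblasts and 1283 CPM (1272 to 1293) in WT fibroblasts. Its level in B cells was 7.41 CPM in KO and 2.17 CPM in WT. The eosinophil ligand Ccl11 had 382 CPM in KO and 331 CPM in WT fibroblasts. Ccl8 had 198 CPM in KO and 144 CPM in WT fibroblasts, Cxcl13, the ligand that guides B cells, 121 CPM in KO and 135 CPM in WT, and the neutrophil ligand Cxcl5 49.4 CPM in KO and 47.0 CPM in WT. None of these 7 ratios passed 2-fold.

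The 6 fibroblast clusters differed far more from each other than the libraries did. Cluster 4, led by Vit, Gdf10 and Il6, had the most Cxcl1, with 3115 CPM in KO and 4394 CPM in WT cells, and the most Cxcl5, with 335 CPM in KO and 317 CPM in WT. The same cluster was highest for Cxcl12, the ligand of Cxcr4, with 762 CPM in each library, for Ccl8 with 669 CPM in KO and 548 CPM in WT, and for Ccl11 with 776 CPM in KO and 613 CPM in WT. Cluster 5, led by Pi16 and Dpp4, was highest for Ccl2, at 8663 CPM in KO and 6917 CPM in WT. Clusters 5 and 19, both with Pi16 and Dpp4 among their leading genes, carried most Ackr3, the atypical receptor that removes Cxcl12. In cluster 5 Ackr3 had 1349 CPM in KO and 1404 CPM in WT, and in cluster 19 it had 1292 CPM in KO and 1470 CPM in WT, whereas cluster 0 had 36.3 CPM in KO and 31.1 CPM in WT. Cxcl13 followed the same clusters, with 539 CPM in KO and 820 CPM in WT cells of cluster 19. Ackr2, an atypical receptor for inflammatory CC chemokines, had 19.6 CPM in KO and 24.2 CPM in WT cells of cluster 5. Cxcr4, otherwise a receptor of leukocytes, was found in cluster 0, led by Crabp1 and Hc, at 85.8 CPM in KO and 63.5 CPM in WT, against 0.654 CPM in KO and 2.43 CPM in WT cells of cluster 5. High Cxcl12 and high Ackr3 thus lay in different fibroblast clusters. These clusters were found in these cells, so their differences are a description with no test.

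**Figure D2:**
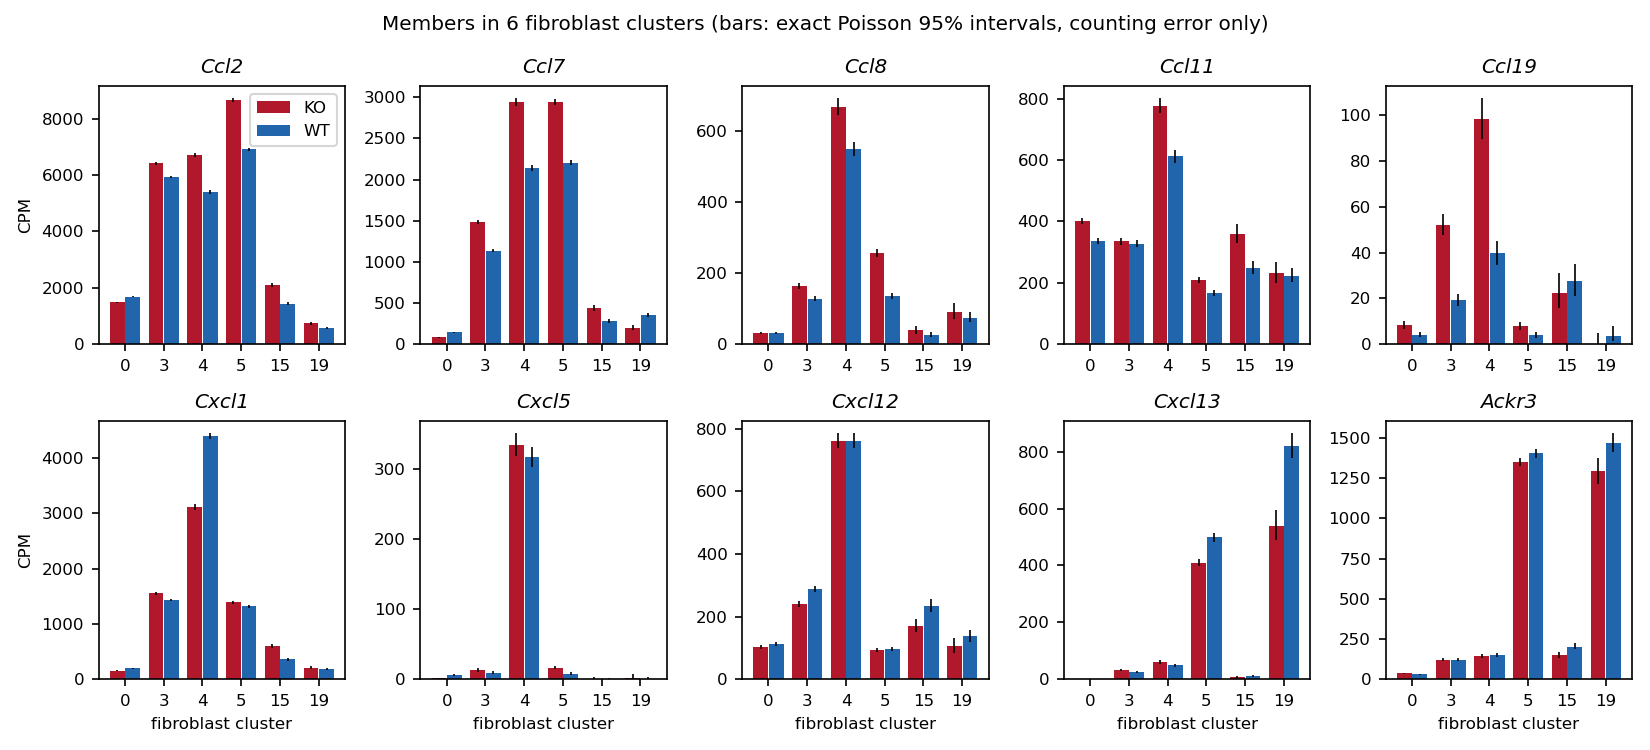
CPM of 10 members in the 6 fibroblast clusters, KO (red, left) beside WT (blue, right), with exact Poisson 95% intervals as bars. Ackr3 and Cxcl13 are high in clusters 5 and 19, Cxcl1, Cxcl5 and Cxcl12 in cluster 4, and Ccl19 is higher in KO in clusters 0, 3, 4 and 5.

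Of the 5 ligands highest in an epithelial class, Cxcl14, a chemokine whose receptor is not settled, had the highest level, with 2319 CPM (2296 to 2342) in KO basal cells and 1829 CPM (1813 to 1846) in WT basal cells, with a UMI in 100% of the KO and 99.3% of the WT cells. Both basal clusters had it, at 2608 CPM in KO and 2205 CPM in WT cells of cluster 2, and at 1619 CPM in KO and 1128 CPM in WT cells of cluster 11. In B cells it was at 1.65 CPM in KO and 10.9 CPM in WT. Cxcl15 was highest in hormone-sensing luminal cells, with 341 CPM (334 to 349) in KO and 339 CPM (331 to 346) in WT cells. Cxcl17 was there too, with 32.6 CPM in KO and 35.3 CPM in WT. Neither was particular to that class. The unnamed cluster 6, with 466 KO and 341 WT cells, had Cxcl15 at 191 CPM in KO and 236 CPM in WT. Its Cxcl17 was at 29.4 CPM in KO and 28.1 CPM in WT. Luminal progenitors had the highest Cx3cl1, a ligand that can stay tethered to the membrane, at 84.0 CPM in KO and 90.2 CPM in WT. Cx3cl1 was not particular to them: vascular endothelial cells had 53.7 CPM in KO and 96.1 CPM in WT, and basal cells 64.5 CPM in KO and 76.3 CPM in WT. Ackr4, the atypical receptor for Ccl19 and Ccl21a, was highest in basal cells, at 10.6 CPM (9.15 to 12.3) in KO and 10.3 CPM (9.05 to 11.6) in WT.

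Vascular endothelial cells led for Cxcl12 and for the interferon-induced ligands of Cxcr3. Cxcl12 had 658 CPM (630 to 687) in KO and 760 CPM (733 to 788) in WT endothelium. Cxcl9 had 635 CPM in KO and 486 CPM in WT, and Cxcl10 had 496 CPM in KO and 472 CPM in WT. Only part of these cells carried them: Cxcl9 was seen in 150 of 350 KO and 145 of 369 WT cells, and its 5 top cells accounted for 35.2% in KO and 23.9% in WT. Ackr1, the atypical receptor of venules that binds many chemokines, had 182 CPM (168 to 198) in KO and 277 CPM (260 to 294) in WT endothelium. It was seen in 48 KO and 55 WT cells, and the ratio was −0.60.

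Macrophages and mature dendritic cells had the highest ligand sums per UMI among the classes with at least 100 cells of each library. Cxcl2, a neutrophil ligand, had 5289 CPM (5210 to 5369) in KO and 5454 CPM (5368 to 5540) in WT macrophages, with neutrophils second at 2540 CPM in KO and 1203 CPM in WT. Its neighbour Cxcl3 had 346 CPM in KO and 251 CPM in WT macrophages. The inflammatory ligands Ccl3 and Ccl4 were lower in KO macrophages, at 692 CPM in KO and 931 CPM in WT for Ccl3 and at 1232 CPM in KO and 2048 CPM in WT for Ccl4, with ratios of −0.43 and −0.73 short of 2-fold. In cluster I5 (the I marks clusters from a second clustering of leukocytes alone), led by Pf4 and Mrc1, Ccl4 had 1610 CPM in KO and 3863 CPM in WT cells. In the other macrophage clusters its ratio ran from −0.58 in cluster I20 to 4.32 in cluster I24, which had 29 KO and 4 WT cells. Ccl9 had 226 CPM in KO and 259 CPM in WT macrophages, and the monocyte ligand Ccl12 had 42.9 CPM in KO and 84.5 CPM in WT.

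Ccl5, a ligand of Ccr1, was the strongest member in any class: it made up 15860 CPM (15663 to 16059) in KO and 15090 CPM (14858 to 15324) in WT mature dendritic cells. Cluster I3, led by Epsti1 and Il12b, held 20759 of its 24764 KO UMIs and 12891 of its 16202 WT UMIs, at 29425 CPM in KO and 24773 CPM in WT, while cluster I9, led by Apol7c and Il4i1, had 4679 CPM in KO and 5984 CPM in WT. Natural killer cells were second for Ccl5, at 9079 CPM in KO and 5684 CPM in WT. Cxcl16, the ligand of Cxcr6, had 799 CPM in KO and 867 CPM in WT mature dendritic cells. Ccl17, a ligand of Ccr4, had 184 CPM in KO and 284 CPM in WT, and 25.3% of the KO UMIs were in 1 cell. Xcl1, which attracts type 1 dendritic cells, was highest in natural killer cells, with 966 CPM in 86 KO and 1244 CPM in 47 WT cells. Ccl6 was highest in neutrophils, with 399 CPM in 37 KO and 370 CPM in 50 WT cells. Ccl7, also high in fibroblasts, had its highest level in the few mast cells, at 3076 CPM in 39 KO and 879 CPM in 23 WT cells, where 1 cell accounted for 26.6% in KO and 19.5% in WT. Among classes of at least 50 cells, mast cells also had the highest levels of Ccl1 with 7 KO and 4 WT UMIs and of Ccl25 with 8 KO and 1 WT UMIs, too few for a comparison. The smaller innate lymphoid class had more Ccl1, with 43 UMIs in 3 of 15 KO cells, at 462 CPM, and 9 UMIs in 2 of 7 WT cells, at 250 CPM.

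The receptors divided the leukocytes by type. Ccr7, which guides cells to lymph nodes, had 2133 CPM (2061 to 2207) in KO and 3694 CPM (3580 to 3811) in WT mature dendritic cells, against 1.14 CPM in KO and 5.37 CPM in WT hormone-sensing luminal cells. Cxcr2, the receptor of Cxcl1, Cxcl2, Cxcl3 and Cxcl5, was highest in neutrophils, with 275 CPM (213 to 350) in KO and 474 CPM (411 to 544) in WT neutrophils and 2.51 CPM in KO and 7.36 CPM in WT macrophages, the next class. Ccr1 was also highest in neutrophils, at 341 CPM in KO and 474 CPM in WT. Xcr1, the receptor of Xcl1, had 115 CPM (96.4 to 137) in KO and 123 CPM (104 to 145) in WT type 1 dendritic cells and 6.89 CPM in KO and 8.77 CPM in WT macrophages. Cx3cr1 had 58.3 CPM in KO and 39.6 CPM in WT macrophages, with most in cluster I7, at 110 CPM in KO and 80.7 CPM in WT.

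Among classes of at least 50 cells, gamma-delta T cells had the highest Cxcr6, at 760 CPM in 101 KO and 744 CPM in 36 WT cells. Mature dendritic cells were next at 20.5 CPM in KO and 25.1 CPM in WT. The innate lymphoid class, too small for this ranking, had more Cxcr6, at 1301 CPM in 15 KO and 1750 CPM in 7 WT cells. Its Ccr2 was at 516 CPM in KO and 833 CPM in WT. Among the ranked classes, gamma-delta T cells also led for Ccr2, at 494 CPM in KO and 696 CPM in WT. They were just ahead of natural killer cells with 504 CPM in KO and 345 CPM in WT, so the order of these 2 classes differed between libraries. Cxcr4 was highest in natural killer cells, at 415 CPM in KO and 406 CPM in WT. Cxcr5, the receptor of Cxcl13, had 56.8 CPM (44.2 to 71.9) in KO and 76.0 CPM (52.9 to 106) in WT B cells. Ccr6 had 80.7 CPM (65.5 to 98.3) in KO and 67.3 CPM (45.7 to 95.5) in WT B cells, and neither B cell receptor differed beyond its counting intervals. The sparse receptors were Ccr4 with 74 UMIs in all cells, Ccr8 with 36 and Ccr10 with 134, each highest in gamma-delta T cells, Cxcr3 with 182, highest in natural killer cells, and Ccr3 with 73 and Ccr9 with 568, highest in mast cells. Sparse ligands were Ccl20 with 70 UMIs, highest in hormone-sensing luminal cells, and Ccl28 with 148, highest in fibroblasts. These ranks, too, are among classes of at least 50 cells.

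Known ligand and receptor pairs mostly joined different classes. Of 34 pairs among the members, 1 had both partners highest in the same class, Ccl25 and Ccr9 in mast cells, and both counts there were small. Cxcl16 in mature dendritic cells (827 CPM over both libraries) faced Cxcr6 in gamma-delta T cells (755 CPM). Xcl1 in natural killer cells (1075 CPM) faced Xcr1 in type 1 dendritic cells (119 CPM). Cxcl1 in fibroblasts (1230 CPM) and Cxcl2 in macrophages (5367 CPM) faced Cxcr2 in neutrophils (403 CPM). Cxcl9 and Cxcl10 in endothelium (553 and 483 CPM) faced a Cxcr3 level of 16.4 CPM in natural killer cells. RNA levels do not show that a pair meets in the tissue.

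For 36 members, the highest class held at least 50 cells of each library and at least 20 UMIs of the member, so that the libraries could be set side by side. In these classes 3 members were at least 2-fold higher in KO (Ccl19 in fibroblasts, Ccl21a in vascular endothelial cells and Ccl24 in macrophages) and 1 was at least 2-fold lower (Ccl22 in mature dendritic cells). Across all genes tested, 0.134% of those in fibroblasts, 1.01% in vascular endothelial cells and 1.58% in macrophages were as much higher, and 4.64% in mature dendritic cells as much lower. The median ratio of the 36 members was −0.016, and 18 were above 0. The all-gene medians of the classes compared ran from −0.15 in type 1 dendritic cells to −0.05 in basal cells.

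**Figure D3:**
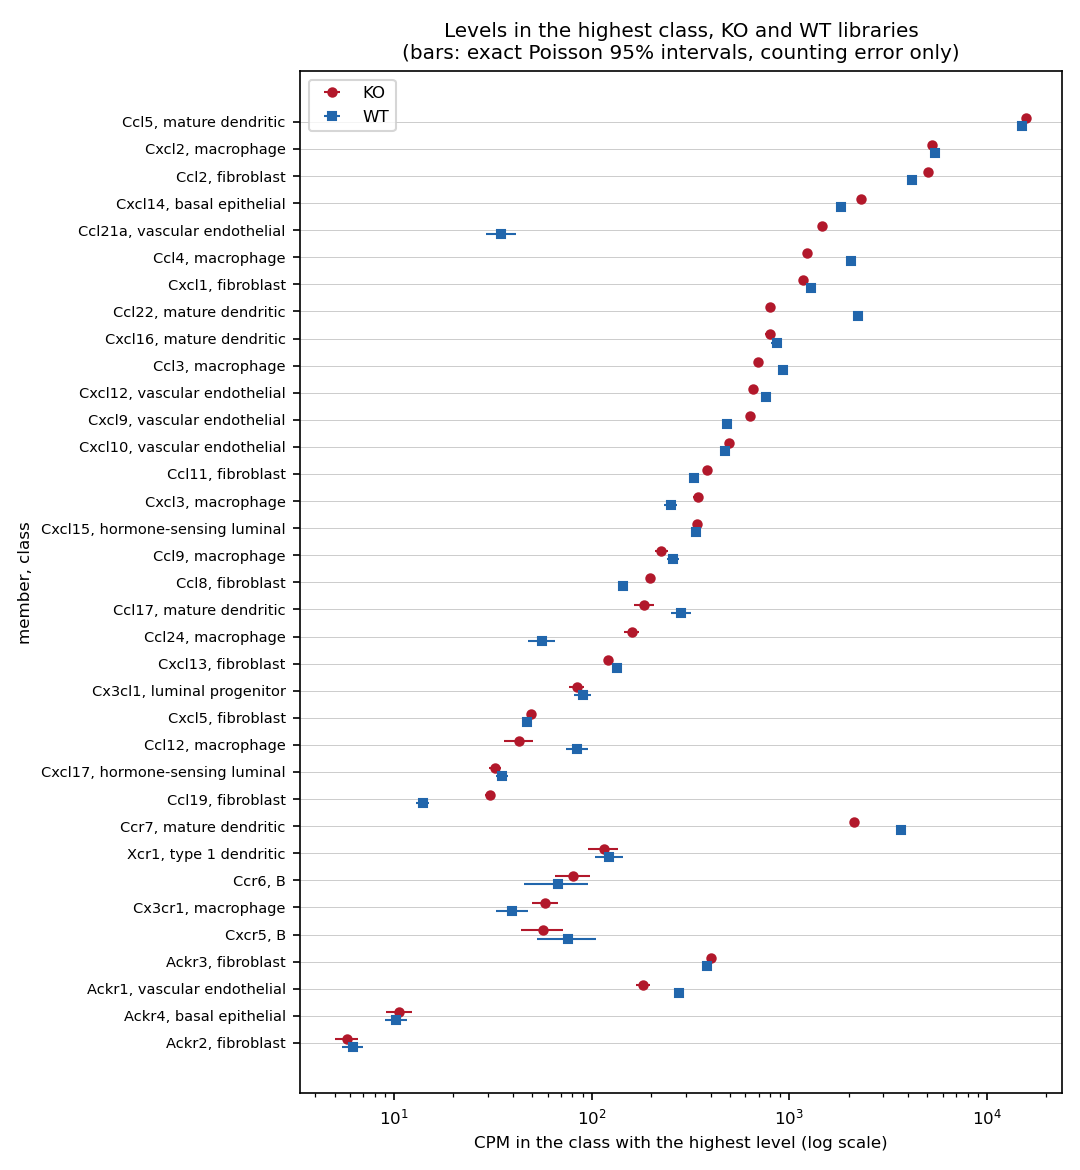
CPM on a log axis of members with at least 200 UMIs in the class where each was highest, KO (red circles, upper) and WT (blue squares, lower), with exact Poisson 95% intervals as bars; classes with under 50 cells of a library are not shown. Most pairs nearly coincide, while Ccl21a and Ccl24 lie well apart with KO higher and Ccl22 with WT higher.

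Ccl19, a ligand of Ccr7 made by fibroblastic cells of lymphoid tissue, had 1209 UMIs in KO fibroblasts, at 30.6 CPM (28.9 to 32.4), against 605 UMIs in WT fibroblasts, at 14.0 CPM (12.9 to 15.1). The ratio was 1.08, with a 95% counting error of ± 0.14. It did not rest on few cells: 602 of 4617 KO fibroblasts and 337 of 3844 WT fibroblasts had a UMI, and the top cell accounted for 2.40% in KO and 2.64% in WT. With a pseudocount of 5 CPM in place of 1 the ratio was 0.91, short of 2-fold. In B cells 1 of 339 KO and 0 of 102 WT cells had one, where 0 WT cells allow a share of up to 2.94%, at the lower median depths given above. With each cell thinned to 2000 UMIs, which left out 234 KO and 255 WT shallower fibroblasts, 5.25% (4.61 to 5.95) of KO and 2.65% (2.15 to 3.23) of WT fibroblasts had a UMI. Ccl19 was higher in KO in the 4 largest fibroblast clusters. It had 98.3 CPM in KO and 39.7 CPM in WT cells of cluster 4, 52.0 CPM in KO and 19.2 CPM in WT cells of cluster 3, 8.34 CPM in KO and 4.11 CPM in WT cells of cluster 0, and 7.85 CPM in KO and 3.84 CPM in WT cells of cluster 5. In cluster 15 it had 22.5 CPM in KO and 27.6 CPM in WT, and in cluster 19 it had 0 KO and 6 WT UMIs. Of the 7 fibroblast markers, 6 were lower in KO fibroblasts, with a summed level of 54600 CPM in KO and 61594 CPM in WT. Among all 41 members tested in fibroblasts, Ccl19 was the only one at least 2-fold higher, and Cx3cr1, at 1.01 CPM in KO and 3.21 CPM in WT with 26.6% of its WT UMIs in 1 cell, the only one as much lower, where 0.688% of all genes were.

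Ccl22, a Ccr4 ligand of dendritic cells, had 1254 UMIs in KO mature dendritic cells, at 803 CPM (759 to 849), against 2391 UMIs in WT cells, at 2227 CPM (2139 to 2318). The ratio was −1.47 ± 0.10, and −0.94, short of 2-fold, where cells were classed one by one instead of by cluster. In the KO library 139 of 165 cells and in the WT library 106 of 118 cells had a UMI, and the top cell accounted for 11.6% in KO and 7.65% in WT. After thinning, the shares were 55.3% (47.3 to 63.1) of KO and 73.7% (64.6 to 81.5) of WT cells. In hormone-sensing luminal cells, which should lack Ccl22, it was at 0.407 CPM in KO and 1.32 CPM in WT. It was lower in both clusters of the class, with 581 CPM in KO and 988 CPM in WT cells of cluster I3 and 986 CPM in KO and 3392 CPM in WT cells of cluster I9. Ccr7 was lower in both as well, with 2011 CPM in KO and 3469 CPM in WT cells of cluster I3 and 2234 CPM in KO and 3905 CPM in WT cells of cluster I9; its ratio of −0.79 did not pass 2-fold. Mature dendritic markers moved with them: 6 of 7 were lower in KO, and their sum was 6349 CPM in KO and 8233 CPM in WT. Of the 9 interferon-stimulated genes tested in this class, 1 was above 0, where 44.6% of all genes were, with a median ratio of −1.18 against −0.07 over all genes. Their median was also below 0 in type 1 dendritic cells, at −0.96, but above 0 in luminal progenitors, at 0.38. The part of the dendritic markers or the interferon-stimulated genes in the Ccl22 difference was not tested. Among the 21 members tested, 3 were at least 2-fold higher, where 2.8% of all genes were, and 5 as much lower. By the naming rule these include Cxcl13, with 98.5% of its KO UMIs in 1 cell, and Ccl2, at 19.9 CPM in KO and 49.4 CPM in WT, about the level seen in B cells.

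Ccl21a, the other Ccr7 ligand, neighbours Ccl19 on chromosome 4 (Ccl19 at 42754525 to 42756577, Ccl21a at 42772860 to 42773993, both on the minus strand). Its near-identical copies Ccl21b and Ccl21c had no UMI, so how the authors' counting divided reads among the copies is uncertain. In KO vascular endothelial cells Ccl21a had 4589 UMIs in 18 of 350 cells, at 1459 CPM (1417 to 1502), against 132 UMIs in 2 of 369 WT cells, at 34.8 CPM (29.1 to 41.2). The ratio was 5.35 ± 0.25, and 1 cell accounted for 21.4% in KO and 83.3% in WT. Glycam1, a mucin of high endothelial venules through which lymphocytes enter lymph nodes, had 23994 UMIs in 16 KO cells, at 7627 CPM, against 2 UMIs in 2 WT cells, at 0.527 CPM. The 8 KO cells with more than 100 Glycam1 UMIs held 3039 of the Ccl21a UMIs (66.2%). Of the 11 KO cells with both genes, 0 had a UMI in 3 or more of the 6 lymphatic endothelial markers. Of the 7 KO cells with Ccl21a alone, 6 did, as did both WT cells. The lymphatic endothelial markers summed to 273 CPM in KO and 163 CPM in WT endothelium, with 5 of 6 higher in KO. Without cells that had a Glycam1 UMI, the Ccl21a ratio was 3.54, on 7 KO and 2 WT cells. In the luminal progenitor class, 1 KO cell held 429 of the 430 Ccl21a UMIs and 6157 of the 6168 KO Glycam1 UMIs. Whether that cell is a luminal progenitor was not tested. WT luminal progenitors had 0 Ccl21a UMIs, which allows up to 0.628 CPM.

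**Figure D4:**
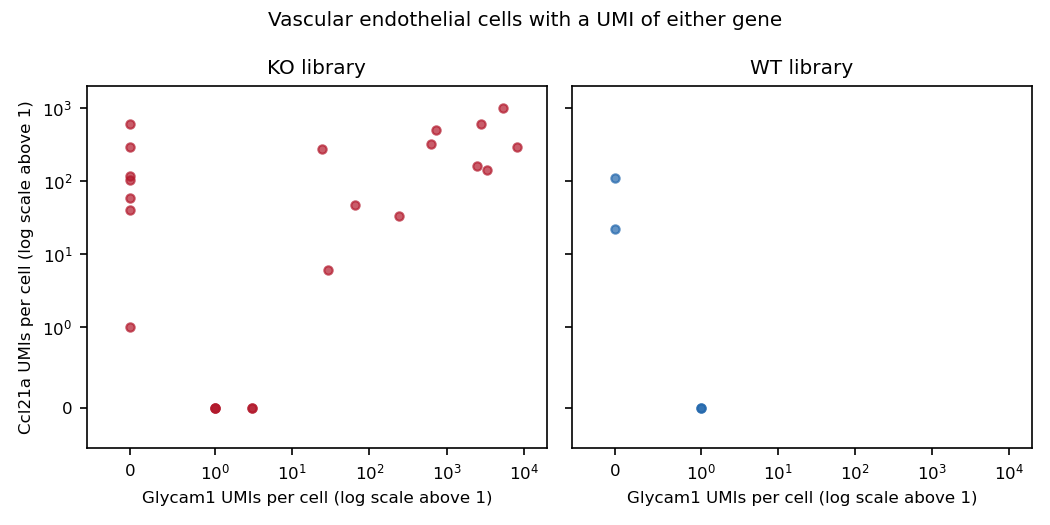
Ccl21a against Glycam1 UMIs per cell in vascular endothelial cells with a UMI of either gene, KO (left) and WT (right), on axes that are logarithmic above 1. Of the KO cells, 11 have both genes, 7 have Ccl21a alone and 5 Glycam1 alone, and the 2 WT cells with Ccl21a have no Glycam1.

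Ccl24, an eosinophil ligand of resident macrophages, had 509 UMIs in KO macrophages, at 159 CPM (146 to 174), against 160 UMIs in WT macrophages, at 56.1 CPM (47.8 to 65.5). The ratio of 1.49 rested on few cells: 50 of 224 KO and 29 of 188 WT cells had a UMI, and 1 cell accounted for 20.6% in KO and 21.2% in WT. With each library clustered alone the ratio was 0.83, short of 2-fold. Cluster I5 accounted for most, with 380 CPM in KO and 162 CPM in WT. Of 45 members tested in macrophages, 2 were at least 2-fold higher and 8 as much lower, where 3.07% of all genes were lower. The other higher one was Cxcl13, with 87.3% of its KO UMIs in 1 cell. Named among the lower ones were Cx3cl1, at 3.76 CPM in KO and 17.5 CPM in WT, and Cxcl14, at 24.4 CPM in KO and 60.3 CPM in WT, each with more than 20% of a library's UMIs in 1 cell. In KO macrophages 7 of 7 fibroblast markers were lower, with sums of 2618 CPM in KO and 3894 CPM in WT, and so were 6 of 7 neutrophil markers, with sums of 230 CPM in KO and 1461 CPM in WT. Their part in these values was not tested.

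In vascular smooth muscle, 0 of 19 members were at least 2-fold higher, where 1.56% of all genes were, and 11 were as much lower, where 6.01% of all genes were. The median member ratio was −1.25, against −0.06 for all genes, and 0 of the 15 ligands tested were above 0. Cxcl1 was the 1 lower member in which no cell held 20% or more of a library's UMIs. It had 628 UMIs in KO cells, at 619 CPM (572 to 669), against 4575 UMIs in WT cells, at 1333 CPM (1294 to 1372). The ratio was −1.10 ± 0.12. After thinning, 32.4% (25.6 to 39.8) of KO and 46.2% (41.5 to 50.9) of WT cells had a UMI. Ccl11 had 1 UMI in 181 KO cells against 729 UMIs in 36 of 460 WT cells, a ratio of −6.75 ± 2.83. Ccr7 had 1 UMI in KO cells against 58 UMIs in 12 WT cells. The others named were Cxcl5, Cxcl10, Ccl5 and Ccl7, with ratios from −2.21 to −1.25, all with 20% or more of a library's UMIs in 1 cell. Fibroblast markers were lower in 7 of 7 cases, with 945 CPM in KO and 1802 CPM in WT cells. Of all genes in this class, 44.6% were above 0. The 10 NF-kB feedback genes, which report that pathway's activity, had a median of −0.66 with 0 above 0. The 14 immediate early and heat shock genes had a median of 0.55 with 14 above 0. The part of each in the lower chemokine levels was not tested.

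NF-kB feedback genes had medians below 0 in every other class tested too, and not only in sources of these ligands. In fibroblasts 1 of 10 was above 0 (median −0.20), where 39.8% of all genes were. In macrophages 0 of 10 were (median −0.46, 40.5% of all genes), and in mature dendritic cells 1 of 10 (median −0.33, 44.6%). B cells had 2 of 10 above 0 (median −0.36, 43.2% of all genes) and hormone-sensing luminal cells 0 of 10 (median −0.36, 41.1%). Of the 4 ligands whose promoters are printed, Cxcl2 had a ratio of −0.04 and Cxcl3 of 0.46 in macrophages, Cxcl1 had −0.13 in fibroblasts, and Cxcl10 had 0.07 in vascular endothelial cells. Whether the ligands' levels are tied to the feedback genes was not tested.

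Luminal progenitors showed the most calls per member tested outside the vessels, with 3 of 26 at least 2-fold higher and 12 as much lower, where 1.03% and 4.09% of all genes were. Several turned on a single cluster. Cluster 28 had 6 KO and 66 WT cells and a Ccl2 level of 1750 CPM in KO and 984 CPM in WT, while cluster 8 held the other 473 KO and 280 WT cells. Over the class, Ccl2 was at 53.9 CPM in KO and 111 CPM in WT, a ratio of −1.02, but without cluster 28 the ratio was 0.41. Ccl7 likewise had −1.38 with and 0.07 without that cluster, and Ccl8 −2.11 with and 0.56 without it. Fibroblast markers in the class were at 382 CPM in KO and 1675 CPM in WT, and neutrophil markers at 341 CPM in KO and 1708 CPM in WT. Cxcl12 was the 1 call not on few cells, with 34 UMIs in KO cells, at 4.98 CPM (3.45 to 6.96), against 61 UMIs in WT cells, at 12.8 CPM (9.76 to 16.4). After thinning, which left out 5 KO and 38 WT cells, 0.633% (0.131 to 1.84) of KO and 2.27% (0.919 to 4.63) of WT cells had a Cxcl12 UMI. These intervals overlap. Ccl5, Ccl11 and Cxcl14 were also lower and Cxcl10 was higher, at 44.2 CPM in KO and 14.2 CPM in WT with 56.3% of the KO UMIs in 1 cell.

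CD8 T cells carried more Cxcr4 in the KO library. It had 103 UMIs in 62 of 294 KO cells, at 65.4 CPM (53.3 to 79.3), against 14 UMIs in 13 of 115 WT cells, at 21.7 CPM (11.9 to 36.4), a ratio of 1.55 ± 0.81. After thinning, 8.97% (5.94 to 12.9) of KO and 4.35% (1.43 to 9.85) of WT cells had a UMI, and these intervals overlap. The CD8 T cell markers summed to 2112 CPM in KO and 2568 CPM in WT. B cells had more Cxcr4, at 136 CPM in KO and 148 CPM in WT. Among the 14 members tested in CD8 T cells, 3 were at least 2-fold higher, where 3.1% of all genes were, and 1 as much lower, where 4.22% were. Xcl1, at 53.3 CPM in KO and 7.75 CPM in WT, was among the higher ones, on few cells.

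In the other classes each call that the naming rule took up had 20% or more of a library's UMIs in 1 cell. Vascular endothelial cells had 3 of 29 members at least 2-fold higher and 6 lower, where 3.81% of all genes were lower. The rule named Ccl21a and Cxcl13 among the higher and Ccl22, Ccl3, Ccl4 and Cxcl14 among the lower ones. Ccl4 there had 48 UMIs in KO, 64.6% of them in 1 cell, and 322 UMIs in WT, 37.6% in 1 cell, beside macrophage markers of 37.2 CPM in KO and 104 CPM in WT. Basal cells had 0 of 29 higher and 2 lower, Cxcl5 and Cxcl10, where 0.149% and 0.806% of all genes were. Hormone-sensing luminal cells had 2 of 27 higher, Cxcl9 and Cxcl10, and 2 lower, Ccl5 and Ccr7, where 0.172% and 1.07% of all genes were. In B cells 3 of 10 were higher, where 2.84% of all genes were, and 0 lower, where 3.87% were; 1 KO B cell held 96.6% of the class's 264 Ccl5 UMIs. CD4 T cells had 3 of 8 higher and 1 lower, where 3.54% and 5.54% of all genes were. The lower one, Ccl2, did not rest on few cells. After thinning, 5.08% (2.46 to 9.14) of KO and 13.7% (6.77 to 23.8) of WT CD4 T cells had a Ccl2 UMI. These intervals overlap. In B cells, which should lack Ccl2, the thinned shares were 5.71% (3.42 to 8.88) in KO and 6.25% (2.33 to 13.1) in WT. Type 1 dendritic cells had 3 of 23 higher and 5 lower, where 1.76% and 7.66% were, and type 2 dendritic cells had 3 of 26 higher and 7 lower, where 2.64% and 6.51% were.

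**Figure D5:**
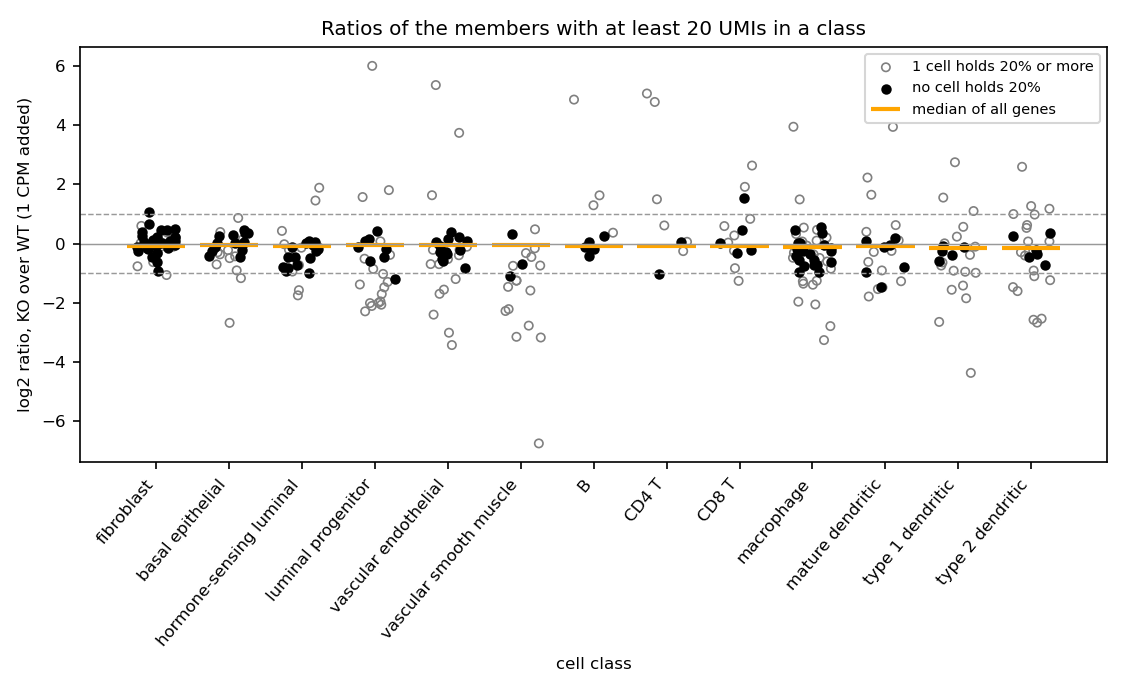
Log2 ratio of KO over WT for each member with at least 20 UMIs in a class (points), by class, with broken lines at 2-fold and orange bars at the median of all genes. Open points, where 1 cell holds 20% or more of a library's UMIs, make up most of the points past 2-fold, and filled points lie near 0 in most classes. A library with very few UMIs of a member makes its point open by count alone, so strong ratios tend to be open under this rule.

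How far a few cells carry a member was measured over all cells of a library. Among the 47 members with at least 200 UMIs, the top 1% of cells held a median of 72.8% of the UMIs in KO and 73.3% in WT, and over 50% of them for 29 members in KO and 32 in WT. The most even were Ackr3 in KO, where the top 1% of cells held 17.2%, and Cx3cl1 in WT, where they held 16.5%. Ccl2 was close to these, at 18.0% in both libraries, with 100 of the 105 KO and 88 of the 106 WT top cells being fibroblasts. Cxcl14 stood at 24.2% in KO and 17.2% in WT, where 98 of the KO and 94 of the WT top cells were basal cells. Ccl5 stood at 72.8% in KO and 76.0% in WT, and Ccl22 at 86.8% in KO and 90.0% in WT, most of whose top cells were mature dendritic cells. Cxcl2 reached 48.7% in KO and 49.3% in WT, with macrophages making up 67 of the KO and 50 of the WT top cells. At the other end, the 10 top cells alone held 82.7% of the Ccl21a UMIs in KO and 94.9% in WT.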

How the data were processed

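The authors deposited UMI counts per gene and barcode of 2 libraries, made with Cell Ranger 5.0.1 on mm10, with Seurat 3.2.0 also named, per the submitters' processing notes. All values were whole numbers. Barcodes under 500 genes or 1000 UMIs, or above 10% mitochondrial UMIs, were dropped, and doublets called by the Scrublet of scanpy 1.11.5 were removed (435 KO, 3.99%; 461 WT, 4.20%). Cells of both libraries were clustered together (2000 variable genes without the members, 30 components, 20 neighbours, leidenalg 0.10.2 at resolution 1), leukocyte clusters were clustered again, and clusters were named from marker lists; the limits on naming were set after clusters had been seen. UMIs were summed per class and library. With 1 library per genotype no test was made. A call is a ratio of at least 2-fold with 1 CPM added, and 20 UMIs are needed. Members with at least 200 UMIs are given in full. Ratios past 2-fold are named in classes with at least 100 cells per library and 50 UMIs, and are said to rest on few cells where 1 cell holds 20% of either library's UMIs. A library with very few UMIs of a member meets this limit by count alone. The members, markers and lists (NF-kB feedback, immediate early and heat shock, interferon-stimulated, chemokine handling, inducing cytokines) were chosen with earlier results of these data known. The ratio script was tested on simulated data. Other genes, such as Glycam1, were chosen after their values were seen. Alternatives included TMM factors (edgeR 4.0.16 on the deposited counts). The values of 1 receptor, which is counted among the members, are not reported here.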

Additional observations from a re-analysis of the deposited data

Results flagged for a closer look

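Some members had ratios past 2-fold in opposite directions in different classes. These differences were not tested, since each genotype has 1 library, and all but those said otherwise rest on few cells. Cxcl10 had log2 ratios of KO over WT of 1.45 in hormone-sensing luminal cells and 1.57 in luminal progenitors, but −1.17 in basal cells and −1.25 in vascular smooth muscle. Ccl5 had 4.86 in B cells, with a counting error of ± 1.64 on 3 WT UMIs, but −1.75 in hormone-sensing luminal cells, −1.70 in luminal progenitors and −2.21 in vascular smooth muscle. Ccl3 had 1.29 in B cells and −3.01 in vascular endothelial cells.

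Several members were higher in an unnamed cluster than in any named class, and no class comparison used those cells. Cluster 25, with 19 KO and 81 WT cells and led by Ccl19, Dlk1 and Slc26a7, was the richest. Over both libraries it had 847 CPM of Ccl19, 1689 CPM of Ccl21a, 613 CPM of Cxcl5, 3388 CPM of Cxcl1, 414 CPM of Cxcl13 and 1095 CPM of Ccl11. By library, Ccl19 was at 4183 CPM in KO and 312 CPM in WT cells of this cluster, and Ccl21a at 6438 CPM in KO and 928 CPM in WT. Cxcl13 was at 2351 CPM in KO and 103 CPM in WT, Cxcl1 at 8932 CPM in KO and 2499 CPM in WT, and Cxcl5 at 1410 CPM in KO and 485 CPM in WT. Of these members Ccl11 alone was lower in KO, at 441 CPM against 1200 CPM in WT. The KO values rest on 19 cells. Ccl20 had 4.92 CPM in cluster 21, which held 234 cells, all of the WT library. Among leukocyte clusters, Cxcr3 had 41.6 CPM in cluster I10, led by Xcl1 and Cd7. Ccr9 had 164 CPM in cluster I14, led by immunoglobulin light chain genes. Ccl6 had 787 CPM in cluster I15 and 1335 CPM in cluster I17, where Ccl9 had 1039 CPM. Ccl1 had 69.2 CPM in cluster I16, from 117 KO and 0 WT UMIs.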

How the results depend on the processing

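The 17 receptors and 16 ligands with an immune highest class came to 14 to 17 and 14 to 18 under the alternatives. The 3 members higher in KO became 5 at resolution 2 and 6 each with libraries clustered alone or cells classed one by one. The 1 member lower became 2 with all barcodes, cells classed one by one, the top 5 cells left out, cells thinned or Glycam1 cells left out, 4 without the second clustering of leukocytes, 5 at 5% mitochondrial UMIs and 6 with libraries clustered alone. Ccl19 in fibroblasts ranged from 0.91 to 1.87, Ccl22 in mature dendritic cells from −1.50 to −0.94, Ccl24 in macrophages from 0.83 to 1.79 and Ccl21a in vascular endothelium from 3.54 to 10.6. Of 42 named ratios past 2-fold, 23 kept their sign under all alternatives and 5 stayed past 2-fold (Ccl11 and Ccr7 in vascular smooth muscle, Ccl3, Ccl4 and Ccl21a in vascular endothelium). Over 1184 values of 73 ratios, 845 stayed within the counting error, 299 moved and 40 turned; the cause was not tested.

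In luminal progenitors the ratio turned with all barcodes for Ccl2 (0.15), Ccl11 (0.031), Ccl8 (0.12) and Cxcl14 (0.38), with doublets kept for Ccl2 (0.48), Ccl7 (0.17), Ccl11 (0.39) and Ccl8 (0.52), at resolution 0.5 and without cluster 28 for Ccl2 (0.41), Ccl7 (0.067) and Ccl8 (0.56), with libraries alone for Ccl2 (0.39), Ccl7 (0.49) and Ccl8 (0.34), with members among the clustering genes for Ccl2 (0.077) and Ccl8 (0.046), and with the top 5 cells left out for Ccl5 (0.82). Ccl2 in mature dendritic cells turned with all barcodes (1.59), doublets kept (0.24), libraries alone (1.81) and no second clustering (0.97). Ccl3 in B cells turned with doublets kept (−0.57), at resolution 0.5 (−0.26) and with members kept (−0.49). With libraries alone, Xcl1 in CD8 T cells (−2.29), Cx3cr1 in fibroblasts (0.50) and Ccl5 in hormone-sensing luminal cells (0.0081) turned. Cells classed one by one turned Xcl1 in CD8 T cells (−1.06), Cxcl9 (−2.34) and Cxcl10 (−0.27) in hormone-sensing luminal cells, Cxcl13 in macrophages (−0.18), and Cxcl10 (0.52) and Ccl5 (1.81) in vascular smooth muscle. Cxcl13 in macrophages also turned without the top 5 cells (−0.11), Cxcl5 in vascular smooth muscle at resolution 2 (0.28), and Cx3cl1 (0.30) and Cxcl14 (0.22) in macrophages after thinning. Leaving out cluster 28 or Glycam1 cells, adding cluster 13 to the fibroblasts and asking for 100 cells per class were chosen after seeing the data. TMM factors shift all ratios by 0.11 in macrophages and by 0.15 in type 1 and in type 2 dendritic cells, and by under 0.1 elsewhere. No paired analysis was possible because each genotype has 1 library.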

Other observations

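A further list held 23 chemokine signalling and handling genes outside the symbol rule (among them Pf4, Ccrl2, Dpp4, Cd74, Arrb2 and Rgs1). Of these, 19 could be tested in fibroblasts, where 0 passed 2-fold in either direction. Their median log2 ratio of KO over WT was −0.13 against −0.07 over all genes. In macrophages 20 were tested and 0 passed 2-fold, with a median of −0.01 against −0.10 over all genes. None passed 2-fold in basal, hormone-sensing luminal, CD4 T and mature dendritic cells either. Vascular endothelial cells had 0 of 17 higher, where 1.01% of all genes were, and 2 lower, where 3.81% were. Vascular smooth muscle had 1 of 12 higher (1.56% of all genes) and 2 lower (6.01% of all genes). Luminal progenitors had 1 of 16 higher, Cd74 (1.03% of all genes), and 1 lower, Rarres2, at a ratio of −2.38 (4.09% of all genes); Rarres2 encodes chemerin, an attractant of dendritic cells. B cells (1 of 13), CD8 T cells (1 of 15), type 1 dendritic cells (1 of 17) and type 2 dendritic cells (2 of 16) had lower genes alone, where 3.87%, 4.22%, 7.66% and 6.51% of all genes were lower.

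Cytokines known to induce chemokines were sparse. Of 13 on the list, 8 could be tested in fibroblasts, with 4 above 0 and a median of 0.04, and 9 in macrophages, with 4 above 0 and a median of −0.05. In vascular endothelial cells 7 were tested, of which Il33 was highest at 2.35 and Il1a lowest at −1.76. In mature dendritic cells 5 were tested and 3 were at least 2-fold higher in KO, where 2.8% of all genes were, with Il13 highest at 6.15. Il13 was also the highest of the list in type 2 dendritic cells, at 5.81, and in macrophages, at 2.21. Shares held by single cells are not given for this list. Interferon-stimulated genes had 9 of 12 above 0 in luminal progenitors (median 0.38; 43.8% of all genes were above 0), where Cxcl10 was higher, and 3 of 12 above 0 in basal cells (median −0.35; 43.1% of all genes), where Cxcl10 was lower. In type 1 dendritic cells 3 of 7 were above 0 (median −0.96; 38.3% of all genes), while Cxcl10 had a ratio of 2.74 and Cxcl9 of 1.10. Whether these move together was not tested.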
